A study of Mus musculus with 18 samples.

Results

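Cell cycle exit and inhibitor genes were followed through 18 RNA-seq libraries of cells derived from mouse embryonic stem cells, using 9 genes of 37224 in the count table, matched by mouse symbol: Cdkn1b, Cdkn2a, Cdkn2b, Cdkn2c, Cdkn2d, Gadd45a, Gadd45g, Btg1 and Btg2. The rule is a list of symbols that uses no measured value, and the list was drawn up with earlier results of these data known. There were 6 groups of 3 libraries, all of strain C57BL/6. They were Hoxb1-null and wild-type neuromesodermal progenitors (NMPs, bipotent cells of the caudal embryo that give spinal cord and paraxial mesoderm), and neural progenitors (NPs) labelled as expressing Hoxb1 with SAG, not expressing Hoxb1 with SAG, expressing Hoxb1 without SAG, and not expressing Hoxb1 without SAG. SAG is an agonist of Smoothened, the transducer of the Hedgehog signal. The NPs labelled as expressing Hoxb1 were given doxycycline (DOX in the labels) and the NPs labelled as not expressing it were not, so the Hoxb1 transgene and the drug cannot be told apart. The labels give no clone, line number or culture for any library, so it is not known whether the 3 libraries of a group came from separate cultures, and the p-values measure the spread between these libraries, which may be technical.

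Cyclin-dependent kinases drive a cell through G1 by phosphorylating the retinoblastoma protein, which then releases E2F factors. The CIP/KIP inhibitors, among them p27 (Cdkn1b), bind cyclin-kinase complexes, while the INK4 inhibitors p15 (Cdkn2b), p16 (from Cdkn2a), p18 (Cdkn2c) and p19 (Cdkn2d) bind CDK4 and CDK6 and keep cyclin D away from them. GADD45 proteins are small stress sensors that bind PCNA and the CDK1-cyclin B complex and activate p38 and JNK signalling, and BTG proteins are antiproliferative adaptors that bring the CCR4-NOT deadenylase to messenger RNAs. In the developing neural tube, p27, p18, p19, Gadd45g and Btg2 are known from progenitors that stop dividing and begin to differentiate, and Btg2 marks the divisions that give rise to neurons.

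The promoters of the neighbours Cdkn2a and Cdkn2b are shown because these genes moved together across SAG. Those of Gadd45a and Gadd45g are shown because Gadd45a was lower with Hoxb1 in NPs without SAG and Gadd45g was not. RefSeq (build GRCm38.p6) held 11 starts for the 9 genes, and 250 bases upstream of each were searched on both strands for 5 motifs, whose matches are in capitals: a GLI core (GACCACCC), an ATF4 composite element (TGATGNAA), a HOX-PBX element (TGATNNAT), an E2F element (TTTNNCGC) and an E-box (CAGCTG). Each sequence runs 5′ to 3′ along the strand of the gene and stops where an annotated exon of the gene begins. The Cdkn2a proximal start, which gives the p16 transcript, lies inside the gene, with the bases at chr4:89282193-89282442 on the minus strand. The Cdkn2a distal start, which gives the p19Arf transcript, has chr4:89294654-89294869, and Cdkn2b has chr4:89311040-89311282, both on the minus strand. Gadd45a has chr6:67037458-67037657 on the minus strand and Gadd45g has chr13:51846425-51846674 on the plus strand.
Cdkn2a proximal: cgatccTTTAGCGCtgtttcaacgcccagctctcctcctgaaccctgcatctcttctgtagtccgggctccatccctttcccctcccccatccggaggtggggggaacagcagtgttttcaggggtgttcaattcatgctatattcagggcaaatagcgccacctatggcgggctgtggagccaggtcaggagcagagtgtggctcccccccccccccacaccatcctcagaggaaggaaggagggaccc
Cdkn2a distal: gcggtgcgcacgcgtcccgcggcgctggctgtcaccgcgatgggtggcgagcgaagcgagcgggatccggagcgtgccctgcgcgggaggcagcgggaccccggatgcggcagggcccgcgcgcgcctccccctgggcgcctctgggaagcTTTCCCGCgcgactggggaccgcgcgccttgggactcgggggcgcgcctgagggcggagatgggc
Cdkn2b: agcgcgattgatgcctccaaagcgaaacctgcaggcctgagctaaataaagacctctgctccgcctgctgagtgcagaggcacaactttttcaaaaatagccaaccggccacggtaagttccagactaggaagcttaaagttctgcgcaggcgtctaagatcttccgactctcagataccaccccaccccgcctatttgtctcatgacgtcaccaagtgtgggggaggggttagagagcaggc
Gadd45a: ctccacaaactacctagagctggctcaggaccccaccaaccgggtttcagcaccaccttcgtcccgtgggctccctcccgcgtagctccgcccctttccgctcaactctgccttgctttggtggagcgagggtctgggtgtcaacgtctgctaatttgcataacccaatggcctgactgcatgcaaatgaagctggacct
Gadd45g: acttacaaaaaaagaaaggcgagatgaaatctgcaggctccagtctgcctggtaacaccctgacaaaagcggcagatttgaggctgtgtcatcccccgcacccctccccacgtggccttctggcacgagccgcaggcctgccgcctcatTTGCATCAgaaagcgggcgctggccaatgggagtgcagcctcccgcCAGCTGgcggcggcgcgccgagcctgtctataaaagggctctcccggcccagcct

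Both Cdkn2a promoters held 1 E2F element, TTTAGCGC at position -244 from the proximal start and TTTCCCGC at -99 from the distal start, and 4.28% of 32851 RefSeq promoters of the same length held this motif. The Gadd45g promoter held an ATF4 composite element (TTGCATCA, the reverse strand of the motif, at -101; the motif is in 3.45% of promoters) and an E-box at -55 (in 13% of promoters). No match to the 5 motifs was found in the Cdkn2b or Gadd45a windows. Of the other promoters, those of Cdkn1b, Cdkn2d, Btg1 and Btg2 held no match, and 1 of the 2 Cdkn2c promoters held a HOX-PBX element (ATTAATCA at -87; in 7.68% of promoters). No promoter of the 9 genes held the GLI core (in 0.703%). A match is a run of letters and not a measured site. The 11 promoters had a GC content of 42.8% to 78.4%, against a median of 52.4% over all promoters, and 6 to 40 CpG dinucleotides, against a median of 6.

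Total counts per library were 16836409 to 19136064 in Hoxb1-null NMPs and 16523276 to 21141058 in wild-type NMPs. They were 22610407 to 24488882 in Hoxb1 NPs with SAG, 22682012 to 26974315 in NPs with SAG, 13301476 to 14505711 in Hoxb1 NPs and 13589876 to 13976829 in NPs. Levels are given as CPM, a gene's counts as a share of all counts of its library on a fixed common scale, adjusted with edgeR's TMM factors over all 18 libraries. Hoxb1 itself followed the labels, at 14.7, 16.2 and 14.8 CPM in the 3 Hoxb1-null NMP libraries against 241, 272 and 249.99 CPM in wild-type NMPs, and at means of 591 CPM in Hoxb1 NPs with SAG against 0.459 CPM in NPs with SAG, and 323 CPM in Hoxb1 NPs against 0.358 CPM in NPs. The labels' library numbers run from 2533 to 2538 in the NPs with SAG, from 7390 to 7395 in those without and from 8085 to 8090 in the NMPs, so SAG, and NMP against NP, cannot be told apart from the set of libraries, while each Hoxb1 comparison lies within a set. The summed level of 10 neural progenitor markers was 1199.98 to 1347 CPM in the NMPs and 3219.6 to 5447 CPM in the NPs, and that of 12 NMP markers was 2139.9 to 2603 CPM in the NMPs and 15.1 to 82.3 CPM in the NPs.

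All 9 genes passed the low-count filter of each fit. Scaled by exon length, Btg2 was the most abundant of the 9 in all 6 groups, at 78.7 to 122 CPM per kilobase. Cdkn2c was the lowest in NMPs, at 0.486 CPM per kilobase in Hoxb1-null and 0.384 in wild-type cells, and Cdkn2b was the lowest in the NPs without SAG, at 1.56 CPM per kilobase with Hoxb1 and 0.916 without. Across the group means, the ratio of the highest to the lowest level was 21.6 for Cdkn2c, 9.69 for Gadd45g, 7.74 for Cdkn2b, 4.48 for Cdkn2a, 3.34 for Cdkn1b, 3.18 for Btg1, 2.45 for Cdkn2d, 1.87 for Gadd45a and 1.55 for Btg2. In bulk RNA, fewer cells of a type and less RNA per cell cannot be told apart, and this holds for every level below.

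**Figure D1:**
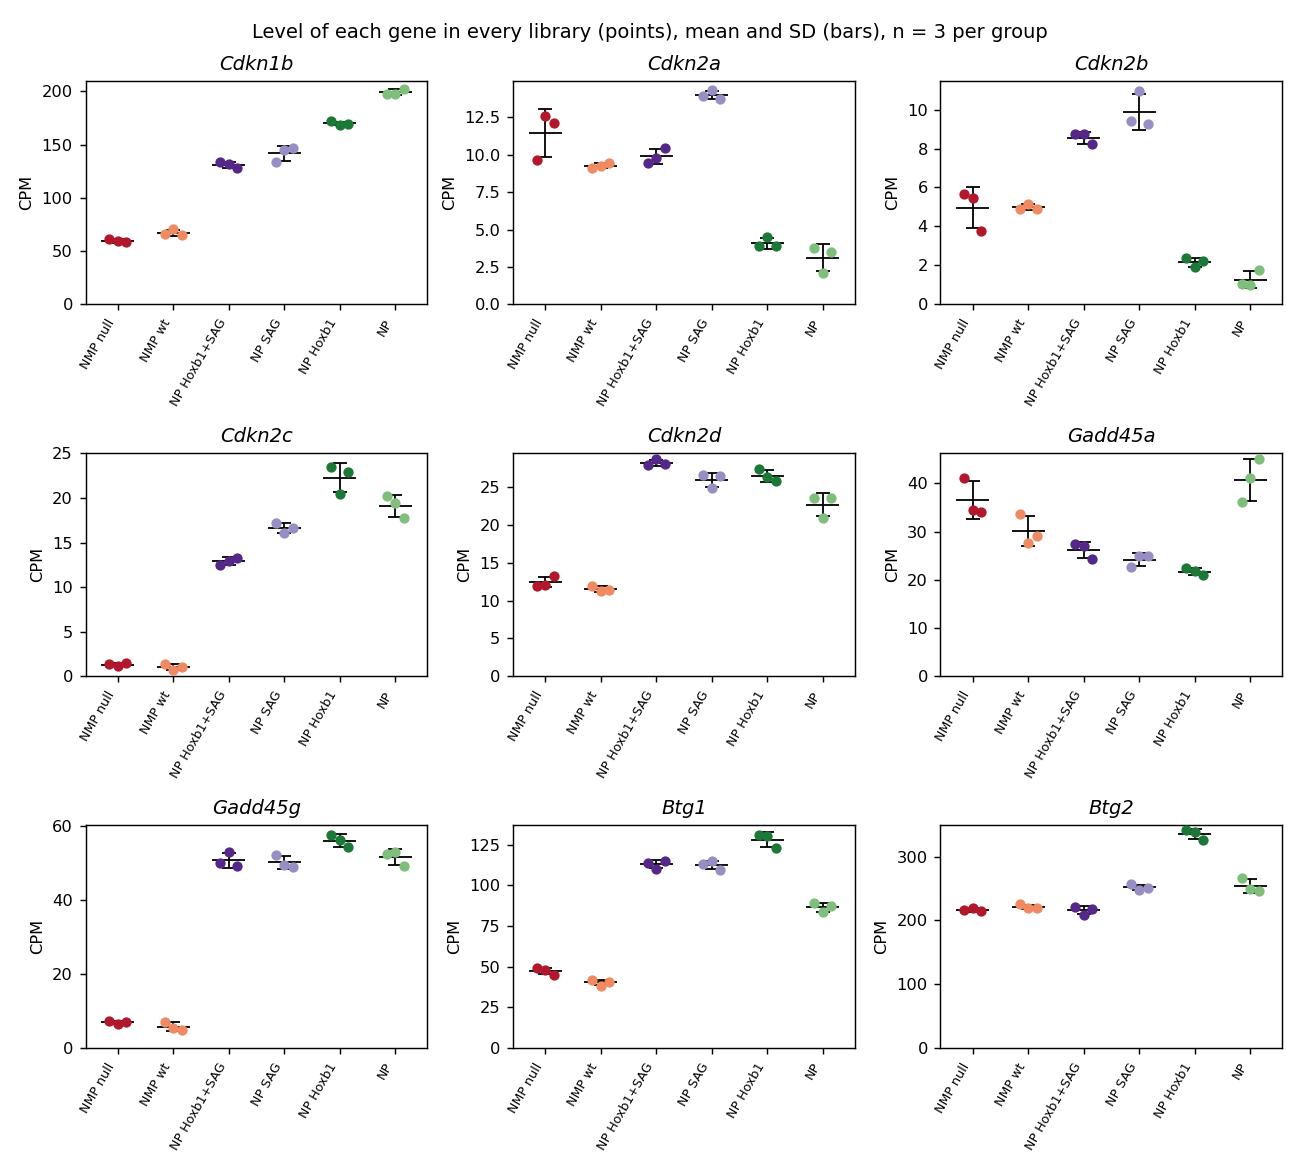
Level of each of the 9 genes (y axes, CPM) in every library (points), with the mean (long bar) and SD (error bar) of the 3 libraries of each of the 6 groups (x axes). Cdkn2c and Gadd45g sit near the bottom in both NMP groups (at most 1.48 and 7.37 CPM), Cdkn2a and Cdkn2b are lowest in the NPs without SAG, and Gadd45a has its highest mean in NPs with neither Hoxb1 nor SAG (40.7 CPM).

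Cdkn1b (ENSMUSG00000003031, chr6:134920401-134925513, plus strand, mm10), the gene of p27, was lower in NMPs than in NPs, and within NPs was lower with Hoxb1 or SAG than without. Among NMPs it was lower in Hoxb1-null than in wild-type cells. Its levels were 61.9, 59.3 and 58.2 CPM in Hoxb1-null NMPs and 66.4, 70.5 and 65.4 CPM in wild-type NMPs. In NPs they were 134, 132 and 128 CPM with Hoxb1 and SAG, against 134, 145 and 147 CPM with SAG alone. They were 172, 169 and 169 CPM with Hoxb1 alone, against 198, 198 and 203 CPM with neither. The 6 groups did not overlap with their neighbours in the order NPs, Hoxb1 NPs, NPs with SAG, Hoxb1 NPs with SAG, wild-type NMPs and Hoxb1-null NMPs.

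By edgeR's quasi-likelihood test, with p-values adjusted over all genes tested, Cdkn1b was lower in Hoxb1-null than wild-type NMPs (log2 change -0.18, SE 0.051, adjusted p = 0.0115), a call lost without wild-type library 2 (log2 -0.15, adjusted p = 0.0962). In NPs, Cdkn1b was lower with Hoxb1 both with SAG (log2 -0.11, SE 0.033, adjusted p = 0.00794) and without SAG (log2 -0.22, SE 0.035, adjusted p = 1.11e-06). The call with SAG was lost without library 3 of NPs with SAG (log2 -0.09, adjusted p = 0.0631), and the difference of the 2 Hoxb1 effects was 0.11 (adjusted p = 0.0636). That difference passed without library 2 or 3 of NPs with SAG (adjusted p = 0.0436 and 0.0342) and with a filter of at least 1 CPM in 3 libraries (adjusted p = 0.0491), over a range of 0.0342 to 0.223 in all alternatives. NPs with SAG had less Cdkn1b than those without, by log2 -0.37 with Hoxb1 (adjusted p = 1.1e-12) and -0.49 without Hoxb1 (adjusted p = 2.2e-16), and wild-type NMPs had less than NPs with neither agent (log2 -1.56, adjusted p = 9.89e-36).

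Cdkn2a (ENSMUSG00000044303, chr4:89274473-89294653, minus strand) gives p16 and, from the distal start, p19Arf, which restrains Mdm2, and the deposited counts pool both transcripts. It was a low gene, with 29 to 411 counts a library. Its levels in NPs were 9.45, 9.76 and 10.4 CPM with Hoxb1 and SAG, against 13.9, 14.3 and 13.7 CPM with SAG alone. They were 3.89, 4.52 and 3.87 CPM with Hoxb1 alone, against 3.78, 2.08 and 3.50 CPM with neither. Every NP library with SAG was thus above every NP library without it. In NMPs the levels were 9.64, 12.5 and 12.1 CPM in Hoxb1-null cells, against 9.10, 9.24 and 9.47 CPM in wild-type cells.

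NPs with SAG had 2.41 times the Cdkn2a level of those without when Hoxb1 was expressed (log2 1.27, SE 0.123, adjusted p = 3.9e-12), and 4.48 times when it was not (log2 2.16, SE 0.123, adjusted p = 3.74e-19). With Hoxb1, Cdkn2a was lower in NPs with SAG (log2 -0.50, SE 0.083, adjusted p = 3.87e-06). Without SAG the Hoxb1 difference had the other sign and missed the threshold (log2 0.39, SE 0.173, adjusted p = 0.0589), though it passed without NP library 1 (log2 0.55, adjusted p = 0.0215) or NP library 3 (log2 0.49, adjusted p = 0.0452). The 2 Hoxb1 effects differed by -0.89 (SE 0.192, adjusted p = 0.000251). In NMPs the null libraries were higher (log2 0.30, SE 0.107, adjusted p = 0.0368), a call that did not hold when any 1 of the 3 wild-type libraries or null library 2 or 3 was left out (adjusted p = 0.0764 to 0.176) or with DESeq2 (adjusted p = 0.112).

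Cdkn2b (ENSMUSG00000073802, chr4:89306289-89311032, minus strand), the gene of p15 and a known target of TGF-beta signalling, lies upstream of Cdkn2a on the same strand and had the same order of NP groups. Its levels were 8.72, 8.76 and 8.21 CPM in Hoxb1 NPs with SAG, against 9.41, 10.96 and 9.27 CPM in NPs with SAG. They were 2.39, 1.93 and 2.21 CPM in Hoxb1 NPs, against 1.07, 1.01 and 1.75 CPM in NPs, which rest on 26 to 35 and 14 to 25 counts a library. All 4 NP groups were apart from each other.

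The SAG difference of Cdkn2b was 3.94-fold with Hoxb1 (log2 1.97, SE 0.146, adjusted p = 1.8e-15) and 7.74-fold without (log2 2.95, SE 0.161, adjusted p = 1.01e-19). Its size stood at the 98.8th percentile of all genes in the second comparison, and that of Cdkn2a at the 97th. With SAG the Hoxb1 difference of Cdkn2b was -0.21 (SE 0.091, adjusted p = 0.0615), which passed without library 1 or 3 of NPs with SAG (adjusted p = 0.0468 and 0.0425) and with upper-quartile scaling (adjusted p = 0.0370), over a range of 0.0370 to 0.346 in all alternatives. Without SAG, Cdkn2b was higher with Hoxb1 (log2 0.78, SE 0.244, adjusted p = 0.00804), which did not hold without NP library 2 (log2 0.63, adjusted p = 0.0594). The 2 Hoxb1 effects differed by -0.98 (SE 0.261, adjusted p = 0.00251). In NMPs, Cdkn2b had 5.67, 5.47 and 3.76 CPM in Hoxb1-null and 4.91, 5.16 and 4.88 CPM in wild-type cells, which overlapped (log2 -0.0073, 95% interval -0.32 to 0.30, adjusted p = 0.979).

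Other markers moved with Cdkn2a and Cdkn2b across SAG. The summed level of 10 mesenchyme and fibroblast markers was 2247 to 2455 CPM in Hoxb1 NPs with SAG and 2209.5 to 2243 CPM in NPs with SAG, against 982 to 1016 CPM in Hoxb1 NPs and 474 to 499 CPM in NPs, with no marker at 0 in any group. Of the 10 markers, 9 were higher and 1 was lower with SAG when Hoxb1 was expressed, and 9 were higher and 0 lower when it was not. Dcn, a matrix proteoglycan gene, had 47.1 CPM in Hoxb1 NPs with SAG and 5.41 CPM in Hoxb1 NPs, and Col3a1 had 1261 CPM in NPs with SAG and 193 CPM in NPs. In wild-type NMPs, where Cdkn2a and Cdkn2b were also above their level in NPs (log2 1.57 and 1.96, adjusted p = 4.34e-14 and 2.1e-12), the summed level of these markers was lower, at 350.5 to 355 CPM. Endoderm markers, 7 listed and 5 tested, summed to 154 to 157 CPM in Hoxb1 NPs with SAG and 153 to 158 CPM in NPs with SAG, against 64.4 to 65.0 CPM in Hoxb1 NPs and 47.7 to 54.4 CPM in NPs. Among these markers Afp was at 0 in every NP group except NPs with SAG. They summed to 156 to 180.0 CPM in Hoxb1-null and 142 to 145 CPM in wild-type NMPs, also above the NPs without SAG. With SAG, 4 of the 5 were higher and 1 was lower when Hoxb1 was expressed, and 5 were higher and 0 lower when it was not. Of 10 pluripotent cell markers, 10 were higher and 0 lower with SAG when Hoxb1 was expressed, and 4 were higher and 1 was lower when it was not. The part of other cells in these differences was not tested. Polycomb proteins are known to silence the locus that holds Cdkn2a and Cdkn2b, and of 9 polycomb genes listed, 3 were higher and 3 lower with SAG both with and without Hoxb1. With Hoxb1, 3 of the 9 polycomb genes were higher and 2 lower in NPs with SAG, and 2 were higher and 4 lower in NPs without. Bmi1, the classical repressor of the locus, was higher with Hoxb1 both in NPs with SAG (52.5 against 38.4 CPM, log2 0.46) and in NPs without (54.4 against 42.1 CPM, log2 0.38). Across SAG without Hoxb1, Bmi1 was lower (38.4 against 42.1 CPM, log2 -0.13), as were Cbx8 (log2 -0.24) and Ring1 (log2 -0.53). Ezh2 (log2 0.22), Eed (log2 0.13) and Kdm2b (log2 0.13) were higher there. Across SAG with Hoxb1, Bmi1 stood at 52.5 against 54.4 CPM, where Cdkn2a and Cdkn2b were higher with SAG. The part of polycomb genes in these differences was not tested.

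Cdkn2c (ENSMUSG00000028551, chr4:109660876-109667189, minus strand), the gene of p18, was the member with the widest range. It stood at 1.32, 1.12 and 1.48 CPM in Hoxb1-null NMPs and 1.38, 0.671 and 1.05 CPM in wild-type NMPs, on 13 to 24 counts a library. In NPs it had 12.5, 12.96 and 13.3 CPM with Hoxb1 and SAG, against 17.2, 16.0 and 16.6 CPM with SAG alone. It had 23.5, 20.5 and 22.9 CPM with Hoxb1 alone, against 20.2, 19.5 and 17.7 CPM with neither. The 4 NP groups were apart from each other, and the 2 NMP groups overlapped.

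Wild-type NMPs had less Cdkn2c than NPs by log2 -4.24 (SE 0.145, adjusted p = 7.9e-31), the largest size among the 9 genes in that comparison. With Hoxb1, Cdkn2c was lower in NPs with SAG (log2 -0.35, SE 0.069, adjusted p = 4.95e-05) and higher in NPs without SAG (log2 0.23, SE 0.075, adjusted p = 0.00977), with a difference of effects of -0.59 (SE 0.102, adjusted p = 1.11e-05). The rise did not hold without NP library 3 (adjusted p = 0.0759) or Hoxb1 NP library 1 (adjusted p = 0.0673). With SAG, Cdkn2c was lower by log2 -0.79 when Hoxb1 was expressed (SE 0.073, adjusted p = 1.21e-12) and by -0.20 when it was not (SE 0.072, adjusted p = 0.012), the second call being lost without NP library 1 (adjusted p = 0.0605). In Hoxb1-null against wild-type NMPs the difference was not detectable at this depth (log2 0.37, 95% interval -0.22 to 0.96, adjusted p = 0.362).

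Cdkn2d (ENSMUSG00000096472, chr9:21288463-21291209, minus strand), the gene of p19Ink4d, changed little among the NPs. It had 27.9, 28.7 and 28.0 CPM in Hoxb1 NPs with SAG, against 26.6, 24.9 and 26.5 CPM in NPs with SAG. It had 27.4, 26.3 and 25.9 CPM in Hoxb1 NPs, against 23.5, 20.9 and 23.6 CPM in NPs. In NMPs it had 11.3 to 13.2 CPM over all 6 libraries, below every NP library. With Hoxb1 it was higher in NPs without SAG (log2 0.24, SE 0.067, adjusted p = 0.00343), and NPs with SAG had more than those without when Hoxb1 was not expressed (log2 0.20, SE 0.062, adjusted p = 0.00457). Both calls were lost without NP library 2 (adjusted p = 0.0553 and 0.0892). The Hoxb1 difference with SAG (log2 0.13, adjusted p = 0.0558) and the SAG difference with Hoxb1 (log2 0.09, adjusted p = 0.194) did not pass, the second passing under upper-quartile scaling (adjusted p = 0.0441), nor did the difference between Hoxb1-null and wild-type NMPs (log2 0.11, adjusted p = 0.401). Wild-type NMPs had less Cdkn2d than NPs by log2 -0.98 (adjusted p = 2.36e-16).

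Gadd45a (ENSMUSG00000036390, chr6:67035096-67037457, minus strand), a known p53 and ATF4 target, had its highest mean in the NPs with neither Hoxb1 nor SAG, where the libraries overlapped with Hoxb1-null NMPs. Its levels were 27.3, 27.05 and 24.4 CPM in Hoxb1 NPs with SAG, against 22.6, 24.9 and 24.9 CPM in NPs with SAG, which overlapped. They were 22.4, 21.7 and 20.9 CPM in Hoxb1 NPs, against 36.1, 41.0 and 44.9 CPM in NPs, which lay far apart. In NMPs they were 41.2, 34.4 and 34.1 CPM in Hoxb1-null cells, against 33.7, 27.6 and 29.0 CPM in wild-type cells. A gene on the opposite strand, E230016M11Rik, overlaps Gadd45a, at 0.968 to 2.75 CPM. The libraries were made with a strand-specific kit, and the sources used here do not say whether the counting used the strand.

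With SAG the Hoxb1 difference of Gadd45a was 0.12 (SE 0.063, 95% interval -0.0054 to 0.25, adjusted p = 0.117). Without SAG, Gadd45a was lower with Hoxb1 (log2 -0.90, SE 0.073, adjusted p = 1.75e-13), and the difference of the 2 effects was 1.02 (SE 0.096, adjusted p = 2.64e-11). The SAG difference had opposite signs, higher with Hoxb1 (log2 0.27, SE 0.072, adjusted p = 0.00102) and lower without (log2 -0.75, SE 0.065, adjusted p = 3.36e-13). Hoxb1-null NMPs had more Gadd45a than wild-type NMPs (log2 0.28, SE 0.081, adjusted p = 0.012), a call lost without wild-type library 2 or 3 or null library 1 (adjusted p = 0.102, 0.0559 and 0.0757). Wild-type NMPs had less than NPs (log2 -0.44, adjusted p = 4.7e-06).

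A list of 12 other ATF4 stress genes, of the amino acid and endoplasmic reticulum stress responses, was set beside Gadd45a. With Hoxb1, 1 was higher and 9 were lower in NPs with SAG (median log2 -0.62), where Gadd45a did not pass, and 0 were higher and 12 lower in NPs without SAG (median log2 -1.75), where Gadd45a was lower. Atf5, a stress-induced transcription factor, had 59.3 ± 2.00 CPM in Hoxb1 NPs and 767 ± 79.99 CPM in NPs (SD, n = 3 each), and Trib3, an ATF4 target that feeds back on the pathway, had 8.98 ± 0.299 CPM in Hoxb1 NPs and 100.5 ± 11.9 CPM in NPs. The NPs with neither Hoxb1 nor SAG thus stood above Hoxb1 NPs for Atf5, Trib3 and Gadd45a. They also stood above NPs with SAG for Atf5 (50.5 CPM in NPs with SAG) and Gadd45a. Across SAG, 2 of the 12 were higher and 7 lower with Hoxb1, where Gadd45a was higher, and 0 were higher and 12 lower without Hoxb1. In Hoxb1-null against wild-type NMPs 9 were higher and 1 was lower, with Trib3 at 39.3 CPM in null and 15.0 CPM in wild-type cells. Of 14 p53 pathway genes, 10 were higher and 1 lower with Hoxb1 in NPs with SAG, and 7 were higher and 2 lower in NPs without SAG. Across SAG, 6 of the 14 were higher and 6 lower with Hoxb1, and 4 were higher and 8 lower without Hoxb1. In Hoxb1-null against wild-type NMPs, 9 were higher and 1 was lower. The part of this stress state, or of p53, in the Gadd45a differences was not tested.

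Gadd45g (ENSMUSG00000021453, chr13:51846678-51848468, plus strand), which is expressed in differentiating neural precursors under proneural factors, differed far more between NMPs and NPs than among NPs. It had 7.37, 6.58 and 7.02 CPM in Hoxb1-null NMPs and 7.07, 5.42 and 4.82 CPM in wild-type NMPs, which overlapped (log2 0.28, SE 0.135, adjusted p = 0.123). That difference passed without wild-type library 1 (log2 0.44, adjusted p = 0.0266). The 12 NP libraries lay between 48.9 and 57.5 CPM, and wild-type NMPs were below NPs by log2 -3.17 (SE 0.082, adjusted p = 3.64e-36).

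Among NPs, Gadd45g was at 49.9, 52.98 and 49.2 CPM with Hoxb1 and SAG, against 52.0, 49.4 and 48.9 CPM with SAG alone (log2 0.024, 95% interval -0.064 to 0.11, adjusted p = 0.695). It was at 57.5, 56.1 and 54.1 CPM with Hoxb1 alone, against 52.5, 52.98 and 49.2 CPM with neither (log2 0.13, SE 0.050, adjusted p = 0.0355). This small rise was lost in 11 of 20 alternatives, with adjusted p up to 0.171 when NP library 3 was left out. Losing it took no more than leaving out NP library 1, Hoxb1 NP library 1 or 2, or library 3 of either SAG group, which gave adjusted p = 0.0517 to 0.139. With SAG, Gadd45g was lower when Hoxb1 was expressed (log2 -0.14, adjusted p = 0.00656), which upper-quartile scaling did not call (adjusted p = 0.0618), and at log2 -0.040 when it was not (adjusted p = 0.455).

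Btg1 (ENSMUSG00000036478, chr10:96617001-96622813, plus strand), an antiproliferative gene of resting cells, was higher with Hoxb1 in NPs without SAG, and no difference was detected with SAG. It had 114, 110.2 and 115 CPM in Hoxb1 NPs with SAG, against 113, 115 and 109.6 CPM in NPs with SAG, which overlapped. It had 131, 130.4 and 123 CPM in Hoxb1 NPs, against 89.0, 83.4 and 87.1 CPM in NPs. In NMPs it had 49.1, 47.8 and 45.0 CPM in Hoxb1-null cells, against 41.7, 38.3 and 40.8 CPM in wild-type cells. Every NMP library was thus below every NP library.

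The Hoxb1 effect on Btg1 was 0.012 with SAG (SE 0.034, 95% interval -0.057 to 0.082, adjusted p = 0.804) and 0.58 without SAG (SE 0.039, adjusted p = 3.47e-16), on the log2 scale, and these differed by -0.56 (SE 0.052, adjusted p = 7.18e-12). With SAG, Btg1 was lower when Hoxb1 was expressed (log2 -0.18, SE 0.036, adjusted p = 2.03e-05) and higher when it was not (log2 0.38, SE 0.038, adjusted p = 6.99e-12). Hoxb1-null NMPs had more Btg1 than wild-type NMPs (log2 0.23, SE 0.059, adjusted p = 0.00461), a call lost without wild-type library 2 (log2 0.19, adjusted p = 0.0562). Wild-type NMPs had less than NPs (log2 -1.11, adjusted p = 1.93e-26).

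Btg2 (ENSMUSG00000020423, chr1:134075170-134079120, minus strand), the marker of neuron-producing divisions, had opposite Hoxb1 differences with and without SAG. Its levels were 220.3, 209 and 218 CPM in Hoxb1 NPs with SAG, against 256, 248 and 251 CPM in NPs with SAG. They were 341, 338 and 326 CPM in Hoxb1 NPs, against 266, 249 and 246 CPM in NPs. Among the NPs, those with Hoxb1 alone were the highest and those with Hoxb1 and SAG the lowest, while NPs with SAG overlapped with NPs. In NMPs they were 216, 219.8 and 214 CPM in Hoxb1-null cells, against 225, 219 and 220.1 CPM in wild-type cells, which overlapped (log2 -0.034, adjusted p = 0.537).

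Btg2 was lower with Hoxb1 in NPs with SAG (log2 -0.21, SE 0.032, adjusted p = 3.64e-07) and higher with Hoxb1 in NPs without SAG (log2 0.41, SE 0.033, adjusted p = 5.33e-14), with a difference of effects of -0.63 (SE 0.046, adjusted p = 7.89e-15). With SAG, Btg2 was lower by log2 -0.64 when Hoxb1 was expressed (SE 0.032, adjusted p = 7e-21), and the difference without Hoxb1 was -0.010 (95% interval -0.076 to 0.055, adjusted p = 0.788). Wild-type NMPs had less Btg2 than NPs (log2 -0.20, adjusted p = 1.93e-06).

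In the Hoxb1 comparison among NPs with SAG, 0 of the 9 genes were higher, 4 were lower (Cdkn1b, Cdkn2a, Cdkn2c and Btg2) and 5 did not pass. Over all 16238 genes tested, 21.4% were higher and 21.9% lower, 43.4% in all. Among NPs without SAG, 6 of the 9 were higher (Cdkn2b, Cdkn2c, Cdkn2d, Gadd45g, Btg1 and Btg2), 2 were lower (Cdkn1b and Gadd45a) and Cdkn2a did not pass, against 24.1% higher and 22.1% lower over all genes, 46.2% in all. The calls of Cdkn2b, Cdkn2c, Cdkn2d and Gadd45g were each lost when 1 or another single library was left out. The median log2 change of the 9 was -0.11 with SAG and 0.24 without, while that of all genes was 0.0012 with SAG and 0.0031 without. The difference of the 2 Hoxb1 effects was called for 6 of the 9, 5 of them lower with SAG than without (Cdkn2a, Cdkn2b, Cdkn2c, Btg1 and Btg2) and Gadd45a higher, where 35.5% of all genes were called, 16.8% higher and 18.6% lower. This difference is confounded with the set of libraries, since NPs with and without SAG came from different sets. It is also confounded with the level of Hoxb1 itself, at 591 CPM in Hoxb1 NPs with SAG and 323 CPM in Hoxb1 NPs (log2 0.87).

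**Figure D2:**
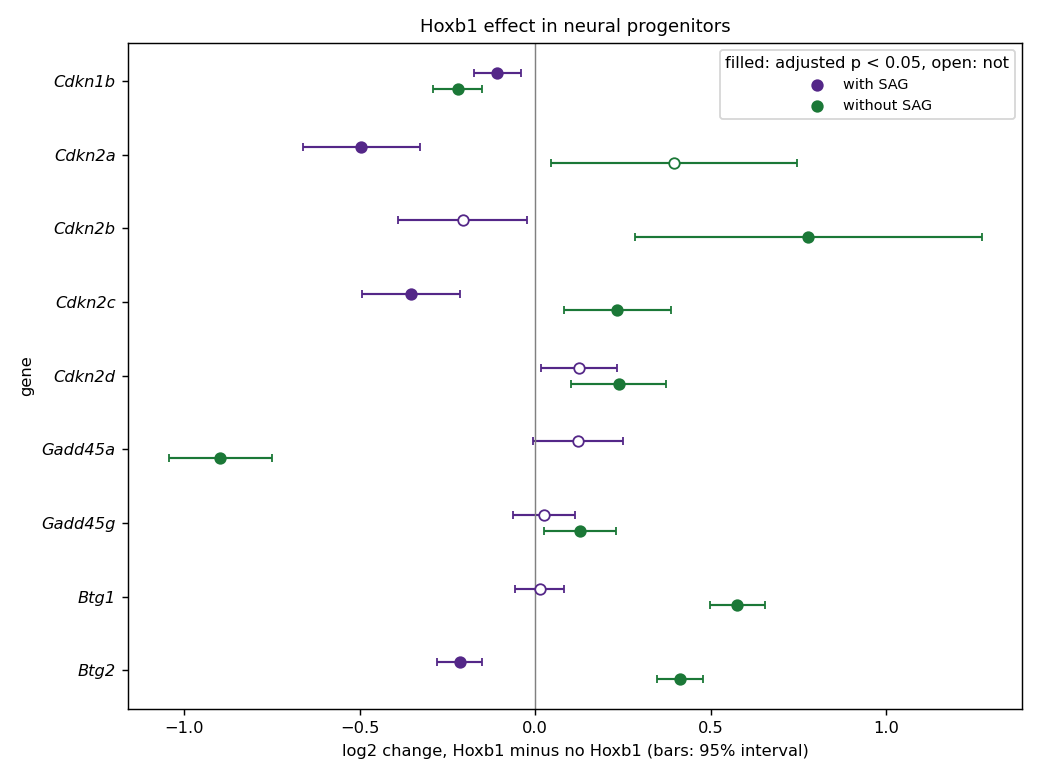
Hoxb1 effect on each gene in NPs (x axis, log2 change, Hoxb1 minus no Hoxb1, with 95% intervals), with SAG (purple, upper) and without SAG (green, lower); filled points passed an adjusted p of 0.05. The intervals with and without SAG are apart for Cdkn2a, Cdkn2b, Cdkn2c, Gadd45a, Btg1 and Btg2, and Gadd45a is the gene with the lowest value without SAG (-0.90).

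The neuron marker sum was higher with Hoxb1 in both comparisons, whereas Btg2 and Cdkn2c were higher with Hoxb1 without SAG and lower with it. The summed level of 14 postmitotic neuron markers was 1930.5 to 2011 CPM in Hoxb1 NPs with SAG, against 1174 to 1210.4 CPM in NPs with SAG, and 2916 to 3107 CPM in Hoxb1 NPs, against 2077 to 2166 CPM in NPs, with none at 0. With Hoxb1, 7 of the 14 were higher and 5 lower in NPs with SAG, and 12 were higher and 2 lower in NPs without. Btg2, Cdkn2c and Cdkn2a were thus lower with Hoxb1 in the SAG libraries while the summed neuron markers were higher there. Of 10 proneural genes tested, 4 were higher and 5 lower with Hoxb1 in NPs with SAG, and 8 were higher and 1 was lower in NPs without. Neurod4, a proneural factor of committed neural precursors, had 25.3 CPM in Hoxb1 NPs with SAG and 2.20 CPM in NPs with SAG, and 20.2 CPM in Hoxb1 NPs and 4.33 CPM in NPs. Of 10 neural progenitor markers, 0 were higher and 8 lower with Hoxb1 in NPs with SAG (3220 to 3331 CPM summed in Hoxb1 NPs with SAG, against 3877 to 3975 CPM in NPs with SAG). In NPs without SAG, 6 were higher and 4 lower (5439 to 5447 CPM in Hoxb1 NPs, against 4565 to 4719 CPM in NPs). These sums lay on the same side as Btg2 and Cdkn2c in both comparisons. Cdkn1b and Gadd45a went the other way from the sum without SAG, and Cdkn2a did not pass there. With SAG, Cdkn2b, Cdkn2d, Gadd45a, Gadd45g and Btg1 did not pass. Pluripotent cell markers were higher for 3 of 10 and lower for 4 with Hoxb1 in NPs with SAG, and 0 were higher and 10 lower in NPs without. Of 10 mesenchyme markers, 7 were higher and 1 lower with Hoxb1 in NPs with SAG, and 6 were higher and 1 lower in NPs without. The part of these cells in the differences of the 9 genes was not tested.

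Among other cell cycle genes, mitosis genes were mostly higher with Hoxb1 in NPs without SAG, and replication genes mostly lower. Of the other CIP/KIP inhibitors, Cdkn1a (p21) was higher with Hoxb1 in NPs with SAG (364 against 257 CPM, log2 0.51, adjusted p = 5.11e-18), and Cdkn1c (p57, an inhibitor of cells leaving the cycle) in NPs without SAG (368 against 237 CPM, log2 0.65, adjusted p = 2.59e-20). Of 12 mitosis genes, 3 were higher and 1 was lower with Hoxb1 in NPs with SAG, and 11 were higher and 0 lower in NPs without, with Cdk1, the mitotic kinase, at 102 CPM in Hoxb1 NPs and 75.0 CPM in NPs. Of 12 replication genes, 0 were higher and 7 lower with SAG, and 2 higher and 7 lower without. Pola1, a DNA polymerase subunit gene, had 35.3 CPM in Hoxb1 NPs and 52.0 CPM in NPs. Of 10 G1 cyclin and kinase genes, 1 was higher and 3 were lower with SAG, and 2 were higher and 5 lower without, among them Cdk6, a target of the INK4 proteins, at 19.6 CPM in Hoxb1 NPs and 28.6 CPM in NPs. Of 14 p53 pathway genes, 10 were higher and 1 lower with SAG, and 7 higher and 2 lower without.

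Across SAG, 3 of the 9 genes were higher (Cdkn2a, Cdkn2b and Gadd45a) and 5 lower (Cdkn1b, Cdkn2c, Gadd45g, Btg1 and Btg2) in NPs expressing Hoxb1, where 36.4% of all genes were higher and 35.8% lower, 72.2% in all. In NPs not expressing Hoxb1, 4 were higher (Cdkn2a, Cdkn2b, Cdkn2d and Btg1) and 3 lower (Cdkn1b, Cdkn2c and Gadd45a), where 36.5% of all genes were higher and 36.3% lower, 72.7% in all. With that many genes called, the number of members called does not set them apart. The median size of change of the 9 was 0.37 with Hoxb1 and 0.38 without it on the log2 scale, against 0.35 with Hoxb1 and 0.37 without it over all genes. SAG and the set of libraries cannot be told apart in these comparisons.

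**Figure D3:**
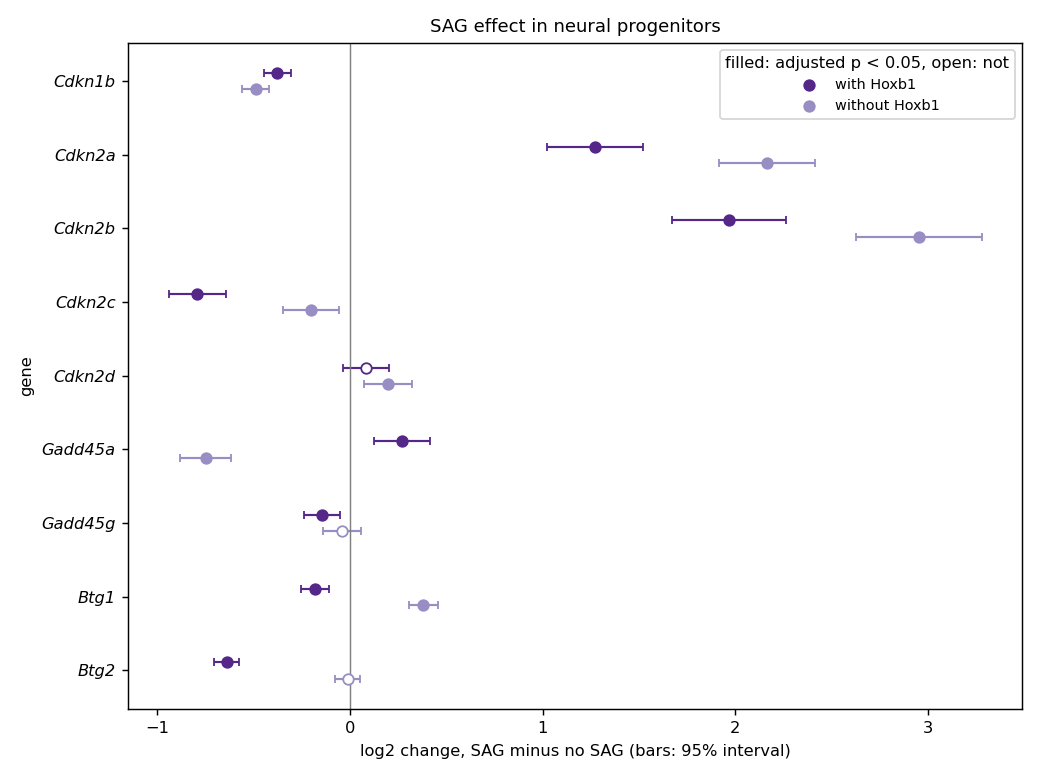
SAG effect on each gene in NPs (x axis, log2 change, SAG minus no SAG, with 95% intervals), with Hoxb1 (dark purple, upper) and without (light purple, lower); filled points passed an adjusted p of 0.05. Cdkn2b and Cdkn2a stand to the right of all others (log2 1.27 to 2.95), and Gadd45a and Btg1 have opposite signs with and without Hoxb1.

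The higher Cdkn2a and Cdkn2b with SAG stood beside more RNA of replication genes: 12 of 12 were higher with SAG and 0 lower, both with and without Hoxb1. Tyms, thymidylate synthase, had 40.2 CPM in Hoxb1 NPs with SAG and 12.6 CPM in Hoxb1 NPs, and 48.5 CPM in NPs with SAG and 18.01 CPM in NPs. With Hoxb1, 7 of 10 G1 cyclin and kinase genes rose and 2 fell, and without Hoxb1 7 rose and 3 fell, and cyclin E1 (Ccne1) had 63.3 CPM in Hoxb1 NPs with SAG and 27.1 CPM in Hoxb1 NPs. Mitosis genes were higher for 7 of 12 and lower for 3 with Hoxb1, and higher for 9 and lower for 2 without. Mki67, a marker of cycling cells that was looked up after its values were seen, went the other way, at 403 CPM in Hoxb1 NPs with SAG and 538 CPM in Hoxb1 NPs, and 402 CPM in NPs with SAG and 478 CPM in NPs. Of 10 proneural genes, 1 was higher and 9 lower with Hoxb1, and 1 higher and 7 lower without, and of 14 neuron markers, 3 were higher and 11 lower with Hoxb1, and 0 higher and 14 lower without.

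In Hoxb1-null against wild-type NMPs, 3 of the 9 genes were higher (Cdkn2a, Gadd45a and Btg1) and Cdkn1b was lower, while 5 did not pass. Over the 15032 genes tested, 14.9% were higher and 13.9% lower, 28.8% in all, and the median log2 change was 0.23 over the 9 genes and -0.00013 over all genes. These calls changed with single libraries: without wild-type library 2 none of the 9 passed, and without wild-type library 3, 2 passed. The values behind them are small, with log2 sizes of 0.18 to 0.30 among the 4 that passed. Mitosis genes fell, with 0 higher and 8 lower of 12, among them Mki67 at 257 CPM in null and 334 CPM in wild-type cells, and 9 of 14 p53 pathway genes were higher and 1 lower. Pmaip1, a p53-induced pro-apoptotic gene, had 286 CPM in null and 150.1 CPM in wild-type cells. Pluripotent cell markers summed to 884 to 1063 CPM in null and 753 to 814 CPM in wild-type cells, with 6 of 9 tested higher and 0 lower. Of 12 NMP markers, 1 was higher and 9 were lower (2140 to 2373 CPM summed in null and 2391 to 2603 CPM in wild-type cells), and of 9 mesenchyme markers tested, 5 were higher and 2 lower. The part of these markers' cells in the differences was not tested. Gadd45b, the third GADD45 gene, was lower (5.38 against 9.40 CPM, log2 -0.81, adjusted p = 1.14e-05), unlike Gadd45a.

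In wild-type NMPs against NPs with neither Hoxb1 nor SAG, 7 of the 9 genes were lower and Cdkn2a and Cdkn2b were higher. Over all 16761 genes tested, 42.3% were higher and 43.7% lower, 86% in all, so that the count is read against a comparison in which most genes differed. The median log2 change was -0.98 over the 9 genes and -0.02 over all genes, and the median size was 1.56 against 0.84. Cell type and library set cannot be told apart here. All 12 replication genes were higher in NMPs, with proliferating cell nuclear antigen (Pcna, the GADD45 partner) at 213 CPM in NMPs and 48.0 CPM in NPs. The 14 neuron markers were all lower, with a summed level of 357 to 375 CPM in NMPs and 2077 to 2166 CPM in NPs, and so were 8 of 10 proneural genes. Cdkn1c was also lower (81.1 against 237 CPM, log2 -1.55), and the pocket protein gene Rb1, whose product the INK4 proteins keep active, was at 15.7 CPM in NMPs and 77.8 CPM in NPs (log2 -2.31).

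**Figure D4:**
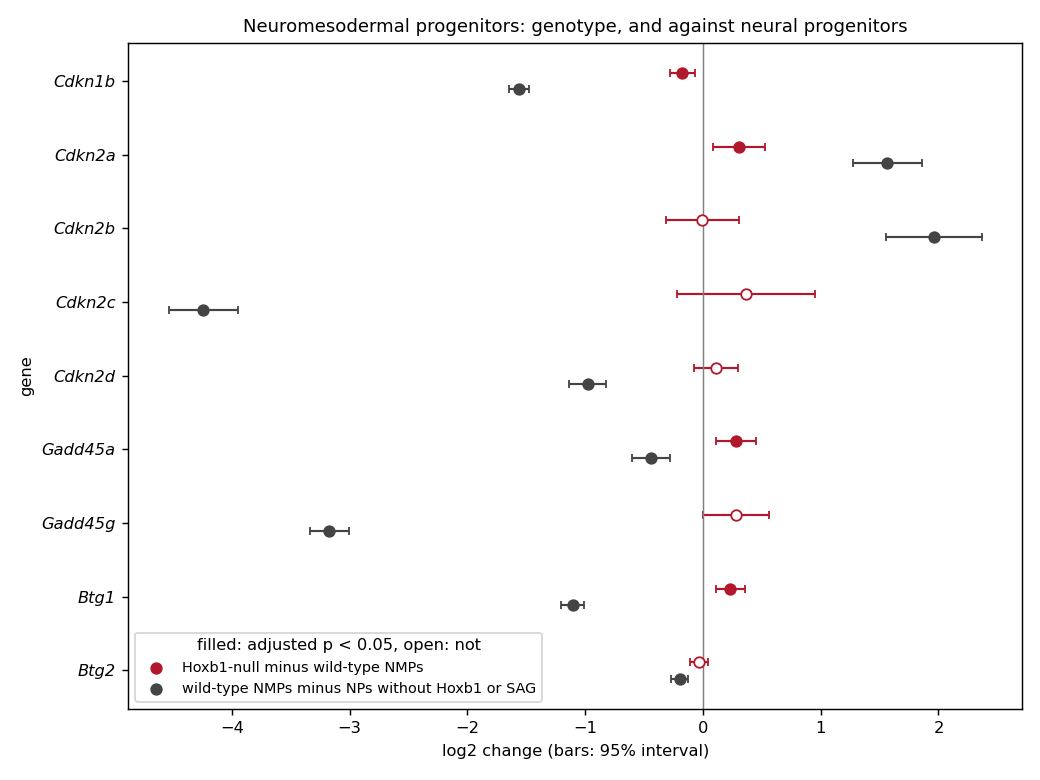
Log2 change of each gene (x axis, with 95% intervals) for Hoxb1-null minus wild-type NMPs (red, upper) and wild-type NMPs minus NPs with neither Hoxb1 nor SAG (grey, lower); filled points passed an adjusted p of 0.05. The genotype effects lie within 0.37 of 0, whereas Cdkn2c (-4.24) and Gadd45g (-3.17) lie far below 0 in NMPs against NPs.

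**Figure D5:**
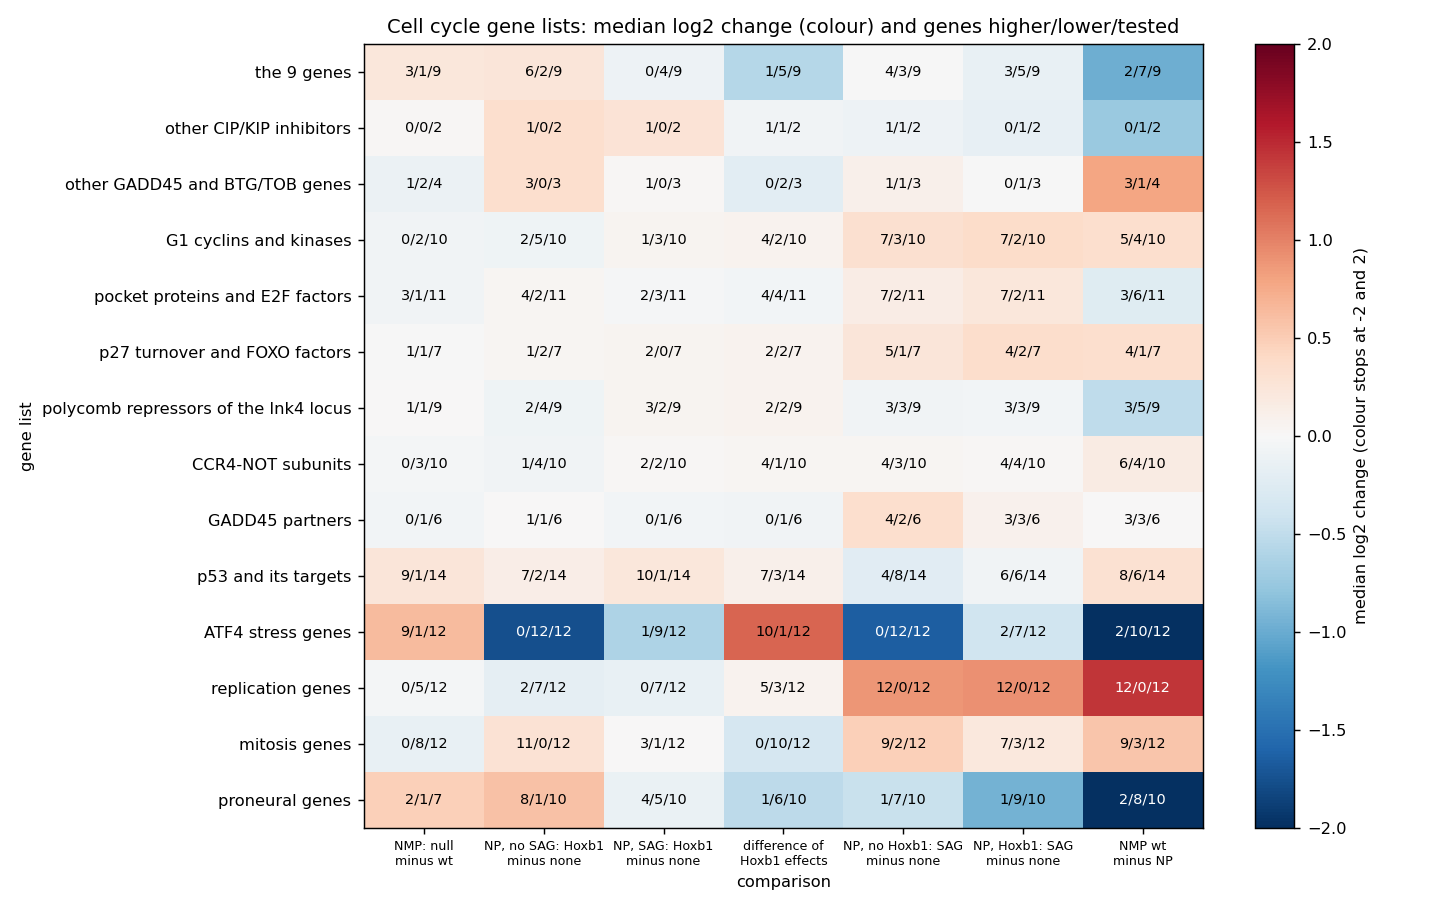
Median log2 change (colour, which stops at -2 and 2) and number of genes higher, lower and tested (text) for the 9 genes and 13 lists of related genes (rows) in the 7 comparisons (columns). Replication genes are higher for 12 of 12 in both SAG comparisons and in NMPs, and ATF4 stress genes are lower for 12 of 12 with Hoxb1 without SAG and with SAG without Hoxb1.

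NMPs lay below all 4 NP groups for Cdkn1b, Cdkn2c, Cdkn2d, Gadd45g and Btg1, and among the NP groups for Cdkn2a, Cdkn2b, Gadd45a and Btg2. The closest pair was Cdkn2c and Gadd45g, with Pearson's r = 0.991 of log2 CPM over 18 libraries, and 0.676 over the 12 NP libraries. Cdkn2a and Cdkn2b had r = 0.918 over 18 libraries and 0.966 over the 12 NP libraries. Cdkn1b and Cdkn2b had r = -0.407 over 18 and -0.936 over the 12, and Gadd45a and Btg1 -0.555 over 18 and -0.949 over the 12. These are descriptions over libraries that share groups and library sets. Of 13276 genes compared, those with the pattern most like each member were Xpr1, Parp11 and Aktip for Cdkn1b (r = 0.998 for each), Cgnl1, Skp1a and Cenpo for Cdkn2a (r = 0.968, 0.961 and 0.954), and Colec12, Dbi and Myl12b for Cdkn2b (r = 0.977, 0.969 and 0.965). They were Cdh7, Dtx4 and Hk1 for Cdkn2c (r = 0.996 for each), Slitrk6, Adamts12 and Fam114a1 for Cdkn2d (r = 0.994, 0.992 and 0.992), and Celsr2, Insm1 and Ctnna2 for Gadd45g (r = 0.998, 0.997 and 0.997). They were Extl1, Cers2 and Xpot for Gadd45a (r = 0.929, 0.929 and 0.924), Scrn1, Prox1 and Acot1 for Btg1 (r = 0.991, 0.991 and 0.990), and Prss23, Myo10 and Tacc1 for Btg2 (r = 0.954, 0.947 and 0.943). Gadd45a and Btg2 had the lowest values for their closest genes.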

How the data were processed

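RNA was measured by poly(A)-selected, strand-specific RNA-seq, per the labels' protocols. The deposited table holds raw read counts per gene that the authors made with featureCounts 1.4.6 on mm10, per the submitters' processing notes, with gene lengths; the sources used here name neither the aligner nor the strand setting of the counting. Symbols matched 35449 of 37224 gene IDs, and 1775 had none.

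Counts were tested with edgeR 4.0.16 in R 4.3.3 (filterByExpr, TMM, robust quasi-likelihood, Benjamini-Hochberg over all genes, threshold 0.05): NMP libraries (15032 genes), NP libraries (16238 genes), and all 18 libraries for NMPs against NPs (16761 genes). The SE is the log2 change divided by the square root of F. CPM levels use TMM factors over all 18 libraries, and levels between genes are divided by the deposited exon length. The code was tested on simulated data. Alternatives were upper-quartile scaling, DESeq2 1.42.0, other filters, no robust estimation, other sets of samples, a replicate block and leaving out each library.

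The rule for named genes gave the 9 members, Hoxb1 and the 3 genes most correlated with each member. It also gave up to 2 called genes per list and comparison with the largest change, at least 1 CPM and no overlap. Genes named outside this rule include Bmi1, Ezh2, Eed, Kdm2b, Foxo1, Foxo4 and Mki67 across SAG, and E230016M11Rik, which overlaps Gadd45a. The members and lists were chosen with earlier results of these data known. Chi-square per gene between replicates was 1.35 to 5.07, so no 2 libraries agreed within sampling noise.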

Additional observations from a re-analysis of the deposited data

Results flagged for a closer look

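The Hoxb1 effect in NPs differed between cells with and without SAG for 6 of the 9 genes, by edgeR's quasi-likelihood test of the difference itself, on the log2 scale, with SAG minus without. Over all 16238 genes tested, 35.5% were called for this difference, 16.8% higher and 18.6% lower. The difference was -0.89 for Cdkn2a, -0.98 for Cdkn2b, -0.59 for Cdkn2c, -0.56 for Btg1 and -0.63 for Btg2, and 1.02 for Gadd45a. For Cdkn2c and Btg2 the Hoxb1 effect passed the test in opposite directions with and without SAG. The Cdkn2c call without SAG was lost without NP library 3 or Hoxb1 NP library 1 (adjusted p up to 0.0759). For Gadd45a, Btg1 and Cdkn2b the Hoxb1 effect passed only without SAG (for Cdkn2b that call was lost without NP library 2, at adjusted p = 0.0594), and for Cdkn2a only with SAG, with all libraries kept. The NPs with and without SAG come from different sets of libraries, so SAG and library set cannot be told apart in these differences. Hoxb1 itself was at 591 CPM in Hoxb1 NPs with SAG and 323 CPM in Hoxb1 NPs (log2 0.87), so SAG and the level of Hoxb1 cannot be told apart either.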

How the results depend on the processing

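Of 1233 values of the 9 genes under alternatives, 1180 kept direction and side of the threshold, 30 lost a call, 10 gained one and 13 changed sign, none of them called in the report. Members called in Hoxb1-null against wild-type NMPs numbered 0 to 4 when 1 library was left out, 0 without wild-type library 2 and 2 without wild-type library 3, and 4 with all libraries. In NPs the leave-one-out counts were 4 to 5 for Hoxb1 with SAG, 6 to 8 without SAG, 6 to 7 for the difference of these effects, 8 to 8 for SAG with Hoxb1, 6 to 7 without Hoxb1, and 9 to 9 for NMPs against NPs.

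The sign changes were of values near 0. Upper-quartile scaling gave log2 0.010 for Cdkn2b in Hoxb1-null NMPs, -0.013 for Btg1 and -0.00066 for Gadd45g with Hoxb1 in NPs with SAG, and 0.035 for Btg2 and 0.0055 for Gadd45g across SAG without Hoxb1. No filter gave 0.0098 for Btg2 across SAG. Leaving out 1 library at a time gave -0.11 to 0.15 for Cdkn2b in NMPs, -0.011 to 0.026 for Btg1 and -0.014 to 0.045 for Gadd45g with Hoxb1 in NPs with SAG, and -0.035 to 0.015 for Btg2 across SAG without Hoxb1. The cause was not tested.

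Replicate numbers showed little pairing of the libraries (correlations of deviations -0.041 to 0.054), except for Hoxb1 with SAG. There the correlations were 0.155, 0.131 and 0.0017 for replicates 1, 2 and 3. With the replicate block the members called stayed at 4 for NMP genotype, 4 for Hoxb1 with SAG, 8 without SAG, 6 for the difference of these effects, 8 for SAG with Hoxb1, 7 without Hoxb1 and 9 for NMPs against NPs. Counts over all genes stayed within 1.5 times. Depth limits Cdkn2c in NMPs and Cdkn2b in NPs without SAG, with 13 to 35 counts a library.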

Other observations

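Genes around p27 moved with SAG. Foxo3, a transcription factor known to activate Cdkn1b in other cells, had 93.4 CPM in Hoxb1 NPs with SAG and 162 CPM in Hoxb1 NPs (log2 -0.80), and 86.6 CPM in NPs with SAG and 155 CPM in NPs (log2 -0.84). Cks1b, a cofactor of the ligase that degrades p27, had 116 CPM in Hoxb1 NPs with SAG and 64.8 CPM in Hoxb1 NPs (log2 0.83), and 111 CPM in NPs with SAG and 71.3 CPM in NPs (log2 0.64). Foxo1 and Foxo4, the other FOXO genes listed, went the other way without Hoxb1. Foxo1 had 33.9 CPM in NPs with SAG and 30.8 CPM in NPs (log2 0.14), and Foxo4 had 75.1 and 64.0 CPM (log2 0.23). Of 7 p27 turnover and FOXO genes, 4 were higher and 2 lower across SAG with Hoxb1, and 5 higher and 1 lower without. Over all genes tested, 72.2% were called across SAG with Hoxb1 and 72.7% without. The part of these genes in the Cdkn1b differences was not tested.

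Of 11 pocket protein and E2F genes, 7 were higher and 2 lower across SAG, both with and without Hoxb1. Rbl2, a pocket protein of resting cells, was lower with SAG, at 24.6 CPM in Hoxb1 NPs with SAG and 49.2 CPM in Hoxb1 NPs, and at 25.8 CPM in NPs with SAG and 41.5 CPM in NPs. Of 10 CCR4-NOT subunits, through which BTG proteins act, 2 were higher and 2 lower with Hoxb1 in NPs with SAG, and 1 was higher and 4 lower without SAG. Among 6 GADD45 partners, 0 were higher and 1 lower with Hoxb1 in NPs with SAG, and 1 was higher and 1 lower without SAG. For the difference of effects, 0 were higher and 1 lower. Over all genes tested, 43.4% were called for Hoxb1 with SAG, 46.2% without SAG and 35.5% for the difference of effects. Map2k6, a p38 kinase activator downstream of GADD45 proteins, was lower with Hoxb1 in NPs with SAG (46.5 against 53.3 CPM, log2 -0.19) and higher without SAG (63.0 against 39.6 CPM, log2 0.68), with a difference of effects of -0.87.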
